A study of Mus musculus with 9 samples.

Results

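Genes of glutathione metabolism, targets of the transcription factor NRF2 and antioxidant enzymes were followed in imiquimod-inflamed mouse back skin with and without mechanical stretch. The genes were taken from a given list of 39 symbols, and 36 of them had a row on the array, out of 19505 genes measured. Gsta1, Prdx6 and G6pdx were not found under their symbols and are not analysed here. Each of the 36 was represented by a single array feature, and none shared its values with another gene.

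RNA came from shaved back skin of C57BL/6J mice aged 8 weeks, hybridised as biotin-labelled cRNA to Affymetrix arrays. In the stretch group (IMQ+F, n = 5) a glued plastic device was elongated by 10 mm on the first day, and cream with 5% imiquimod, a Toll-like receptor agonist that induces psoriasis-like dermatitis, was then applied daily for 7 days. The no-stretch group (IMQ+N, n = 4) received the same cream without traction. All groups therefore carried imiquimod, and no untreated skin was analysed here. The labels leave unsaid whether non-stretched skin carried the glued device. They also do not state that the arrays stand for different mice; the p-values then reflect only array-to-array spread, part of which may be technical. The samples were whole skin, and markers of several cell types had high levels. The 11 keratinocyte markers measured, such as Krt5 and Krt14, all had mean levels at or above the 78.1 percentile of all genes. The 11 fibroblast markers measured lay at or above the 72.2 percentile and the 12 skeletal muscle markers at or above the 80.5 percentile.

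NRF2, encoded by Nfe2l2, is held in the cytoplasm and marked for degradation by KEAP1, and is released when oxidants or electrophiles modify cysteines of KEAP1. It then binds antioxidant response elements and raises genes for glutathione synthesis, thioredoxin recycling and detoxification. Glutathione is the main small thiol of the cell: glutathione S-transferases join it to electrophiles, and glutathione peroxidases use it to reduce peroxides. In skin these systems handle oxidants made by sunlight, by epidermal metabolism and by infiltrating leukocytes.

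Promoter sequences show which of these genes carry the core letters of such an element close to their start. In the RefSeq promoter table (GRCm38.p6, 250 bases before to 50 after each start), 34 of the 39 genes had at least 1 window (all but Gsr, Gsta4, Gclc, Prdx6 and Sod3), and 11 of these 34 (32.4%) held TGACNNNGC on either strand, against 14.0% of all 27025 genes in the table. The stretches below are shown because their genes spread from lower (Gsta3) through near 0 (Mgst1) to higher (Prdx1, Gclm) with stretch. Capitals mark the core in the gene's own reading direction, with 20 bases on each side.
Gclm, chr3:122245403-122245451, plus strand: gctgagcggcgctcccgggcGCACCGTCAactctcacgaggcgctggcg
Prdx1, chr4:116685446-116685494, plus strand: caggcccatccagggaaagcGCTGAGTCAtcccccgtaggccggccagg
Gsta3, chr1:21240444-21240492, plus strand: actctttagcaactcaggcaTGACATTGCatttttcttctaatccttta
Mgst1, chr6:138140451-138140499, plus strand: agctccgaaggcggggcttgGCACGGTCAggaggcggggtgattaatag
In Gclm, Prdx1 and Mgst1 the core stood on the opposite strand. The core of Prdx1, read in the direction of the element, was TGACTCAGC, the same letters as in Mt2, and it contains the AP-1 letters TGACTCA. The other genes with a core were Nfe2l2, Txnrd1, Srxn1, Gstm5, Sod1, Mt2 and G6pdx.

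Metallothionein promoters are known for metal response elements. Letters like their core were searched on both strands with the loose pattern TGCNCNC, where N is any base. Not every match to this pattern need be the core of such an element. These letters are common, in 53.6% of all genes of the table and in 17 of the 34 listed genes with a window. The Mt2 window held 6 of them, a number that 71 of 27025 genes (0.26%) reach, and the Mt1 window held 3, which 8.04% reach. The Mt2 window is shown whole and the Mt1 window from 30 bases before to 50 after the start, with the matches in capitals.
Mt2, chr8:94172368-94172667, plus strand: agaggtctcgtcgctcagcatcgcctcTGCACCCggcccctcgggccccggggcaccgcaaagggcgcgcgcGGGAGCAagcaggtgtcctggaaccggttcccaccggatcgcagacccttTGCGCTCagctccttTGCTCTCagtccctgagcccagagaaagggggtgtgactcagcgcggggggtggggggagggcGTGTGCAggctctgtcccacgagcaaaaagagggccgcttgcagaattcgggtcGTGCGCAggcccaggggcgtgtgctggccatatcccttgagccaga
Mt1, chr8:94179059-94179138, plus strand: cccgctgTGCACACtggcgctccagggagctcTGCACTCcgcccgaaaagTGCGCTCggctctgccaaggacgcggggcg
A match is a description of these letters, not a bound site.

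Most of these genes were higher with stretch, but none passed the test. In whole skin, fewer cells of a type and less RNA per cell cannot be told apart. Of the 36, 25 had a positive log2 change (69.4%, against 49.6% of all genes) and the median log2 change was 0.39, against -0.003 over all genes. On single arrays, the median deviation of the 36 genes from their no-stretch means lay between 0.11 and 0.48 in the stretched arrays and between -0.17 and 0.11 in the others. The glutathione S-transferases divided: 4 of 12 were positive, among them the 3 largest changes of all members, and 8 were negative. Of the other 24 genes, 21 were positive, the exceptions being Cat, Prdx2 and Gpx2.

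With limma's moderated test and Benjamini-Hochberg adjustment over all genes, 0 of the 36 passed an adjusted p of 0.05, where 0.246% of all genes did. At an adjusted p of 0.1, 3 passed (Gpx4 and Gsta4 higher, Gstm1 lower), where 1.08% of all genes did. An unadjusted p under 0.05 was reached by 17 of the 36, 12 higher and 5 lower, which is 47.2% against 13.0% of all genes. All 36 had mean levels at or above the 39 percentile, while the share over all genes includes dimmer ones. That share was not taken among genes of similar level. For 3 genes, Gclm, Gpx4 and Gsta3, all stretched arrays lay on the same side of all the others, which is 8.33% against 4.54% of all genes. Over these genes the standard error of the change had a median of 0.24, and the number of arrays limits the precision.

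**Figure D1:**
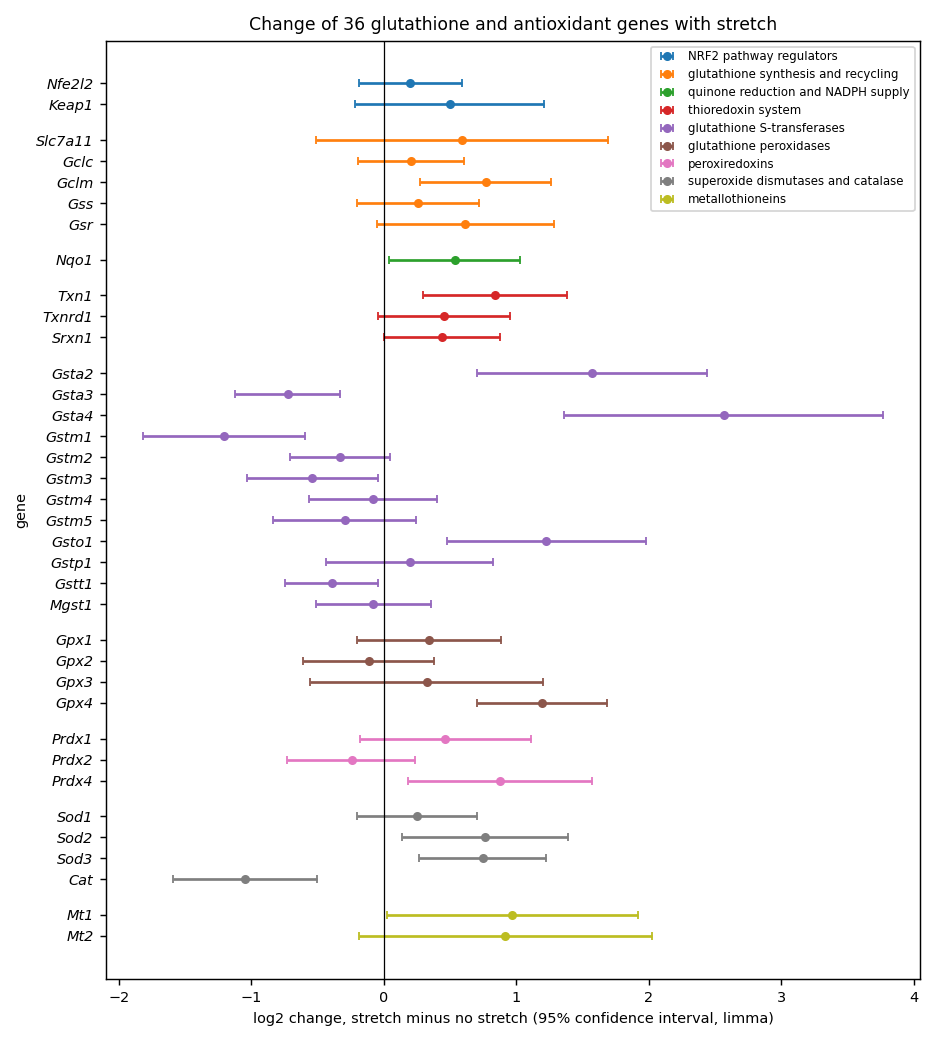
Log2 change of each gene, stretch minus no stretch, with its 95% confidence interval from limma, grouped by enzyme class in colour. The intervals of Gsta4, Gsta2, Gsto1 and Gpx4 lie farthest above 0, and those of Gstm1, Cat and Gsta3 farthest below it.

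The median log2 value of an array was 5.81 to 5.99. In limma's array weights, which are lower for arrays that deviate more from their group, stretch replicate 1 (0.55) and no-stretch replicate 3 (0.58) came lowest, and the other 7 arrays had 0.76 to 1.58. No-stretch replicate 3 was also the lowest of its group for 17 of the 36 genes, and no-stretch replicate 4 was the highest for 16. Without both arrays of lowest weight, a choice made after the data were seen, the median change of the 36 genes was 0.30 and 0 passed.

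Markers of several cell types moved with the groups. Fibroblast markers had 10 of 11 genes lower, 2 of them past the threshold (Cd34 and Dpt), and a list mean of 12.97 to 13.38 with stretch against 13.95 to 14.22 without. Sebaceous gland markers had 9 of 9 lower, with list means of 8.41 to 9.85 against 9.80 to 10.96 and Krt79 lowest in p (log2 change -2.44, limma adjusted p = 0.054). Adipocyte markers had 11 of 12 lower, 1 past the threshold (Acvr1c), with list means of 8.78 to 9.71 against 9.80 to 10.36. Cidea belongs to both the sebaceous and the adipocyte list. Hair follicle markers had 9 of 10 lower, 2 past the threshold (Lhx2 and Krt73), at 4.32 to 4.64 against 4.81 to 5.75.

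In the other direction, neutrophil markers had 16 of 17 genes higher, at 8.33 to 9.77 with stretch against 7.09 to 7.95 without, with Clec4e at a log2 change of 3.18 (limma adjusted p = 0.053). Monocyte and macrophage markers had 13 of 14 higher, with overlapping list means of 12.12 to 13.44 against 11.42 to 12.74. Keratinocyte markers had 3 of 11 higher, with list means that overlapped (14.93 to 15.93 against 15.79 to 16.13). Of the keratinocyte markers, 2 higher and 2 lower had an unadjusted limma p under 0.05 (36.4%, against 13.0% of all genes). Dsg3 and Krt14 were higher (log2 change 0.971 and 0.56), and Lor and Ivl were lower (-0.984 and -1.004). None of them passed the threshold, and the list mean does not show this split. Skeletal muscle markers had 4 of 12 higher, and their list means overlapped as well (13.27 to 15.41 against 14.26 to 14.99). Between the group means, Gstm1, Gsta3 and Cat were lower together with the fibroblast, adipocyte and sebaceous lists, and Gsta4, Gsta2, Gpx4 and Sod2 were higher together with the neutrophil list. Single stretched arrays ran both ways. The neutrophil list was highest on stretch replicate 4 (9.77), where Sod2 (14.43) was highest but Gsta4 (10.81) and Gsta2 (8.90) were lowest of their group. The sebaceous list (8.41) and Gsta3 (6.93) were both lowest on that array. The adipocyte list was highest of the stretched arrays on stretch replicate 5 (9.71), where Gstm1 (11.27) and Cat (12.81) were also highest. The fibroblast list, in contrast, was highest of the stretched arrays on stretch replicate 1 (13.38), where Gstm1 (9.83) and Cat (11.63) were lowest. RMA values have no true zero; 3 neutrophil and 3 hair follicle markers lay below the 25th percentile of all genes, and no marker of the other lists did. The part of these cell types in the changes was not tested.

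**Figure D2:**
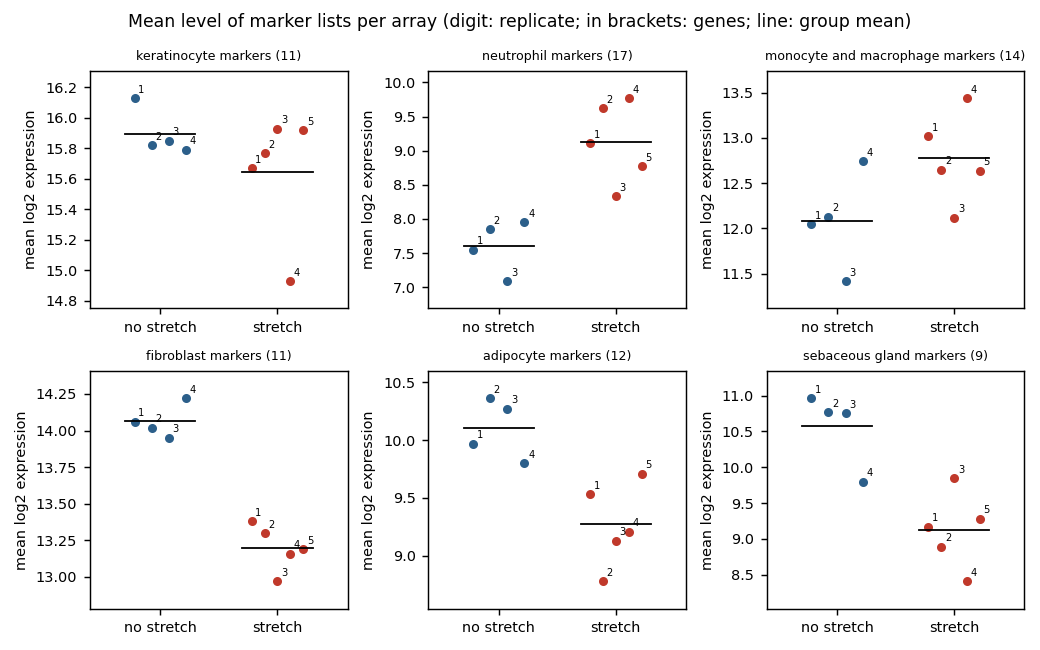
Mean log2 expression of the measured genes of 6 marker lists on each array, with no-stretch arrays in blue, stretch arrays in red, replicate numbers beside the points and a line at the group mean. Fibroblast lists (12.97 to 13.38 against 13.95 to 14.22), adipocyte lists and neutrophil lists are apart between the groups, and the other 3 overlap; axes do not start at 0.

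Both regulators had intervals that included 0. Differences here and below are stretch minus no stretch on the log2 scale. Nfe2l2, which encodes NRF2, was at 5.33, 5.91, 5.62, 5.91 and 6.11 with stretch and at 5.62, 5.64, 5.47 and 5.58 without, a log2 change of 0.20 (95% confidence interval -0.19 to 0.59). Keap1, the adaptor that targets NRF2 for degradation, had a log2 change of 0.50 (-0.22 to 1.21), with no-stretch arrays spread from 7.08 to 8.91 and stretched arrays from 7.95 to 9.05. It was 0.20 without no-stretch replicate 3 and 0.81 without no-stretch replicate 2. The groups overlapped for both genes. The activity of NRF2 is set largely at the level of the protein, which these arrays do not measure.

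Glutathione synthesis and recycling had 5 of 5 genes with positive changes and a median of 0.59. Gclm, the modifier subunit of glutamate-cysteine ligase, which carries out the rate-limiting step of glutathione synthesis, was at 11.74, 10.93, 10.65, 11.16 and 10.82 with stretch and at 10.54, 10.33, 10.01 and 10.29 without. Every stretched array lay above every non-stretched one, though stretch replicate 3 at 10.65 and no-stretch replicate 1 at 10.54 were close. Its log2 change was 0.77 ± 0.23 (SE), 1.70-fold, with limma adjusted p = 0.18. Gclc, the catalytic subunit of the same ligase, differed by 0.21 (95% confidence interval -0.20 to 0.61), and its groups overlapped. Gss, which adds glycine to complete the tripeptide, differed by 0.26 (-0.21 to 0.72). Gsr, the reductase that regenerates glutathione from its oxidised form, was at 11.39 in stretch replicate 4 and at 9.80 to 10.42 in the other stretched arrays, against 9.29 to 10.02 without stretch. Its log2 change of 0.62 (limma adjusted p = 0.43) was 0.35 without stretch replicate 4. Slc7a11, the cystine importer that supplies cysteine for the pathway, varied most within the groups among these 5, from 10.94 to 12.84 with stretch and from 9.81 to 12.43 without. Its change of 0.59 had a 95% confidence interval of -0.51 to 1.69, and leaving out no-stretch replicate 4 or 2 moved it to 0.18 or 1.06.

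The 3 genes of the thioredoxin system and Nqo1 had positive differences as well. Txn1, thioredoxin, was at 16.37, 16.85, 15.90, 16.98 and 16.55 with stretch and at 15.55, 15.79, 15.27 and 16.17 without. Stretch replicate 3 lay below no-stretch replicate 4, and the other 4 stretched arrays lay above all non-stretched ones. The log2 change was 0.84 ± 0.25 (SE), 1.79-fold, with limma adjusted p = 0.19. Txnrd1, the reductase that recharges thioredoxin, differed by 0.45 (adjusted p = 0.43 by limma), and Srxn1, sulfiredoxin, which repairs overoxidised peroxiredoxins, by 0.44 (adjusted p = 0.38). Nqo1, a quinone reductase and a standard readout of NRF2, was at 7.67, 7.84, 7.35, 6.88 and 7.28 with stretch and at 7.00, 7.12, 6.39 and 6.98 without. Stretch replicate 4 lay inside the no-stretch range. The log2 change of Nqo1 was 0.53 ± 0.23 (SE), 1.45-fold, with limma adjusted p = 0.35, and it was 0.37 without no-stretch replicate 3.

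**Figure D3:**
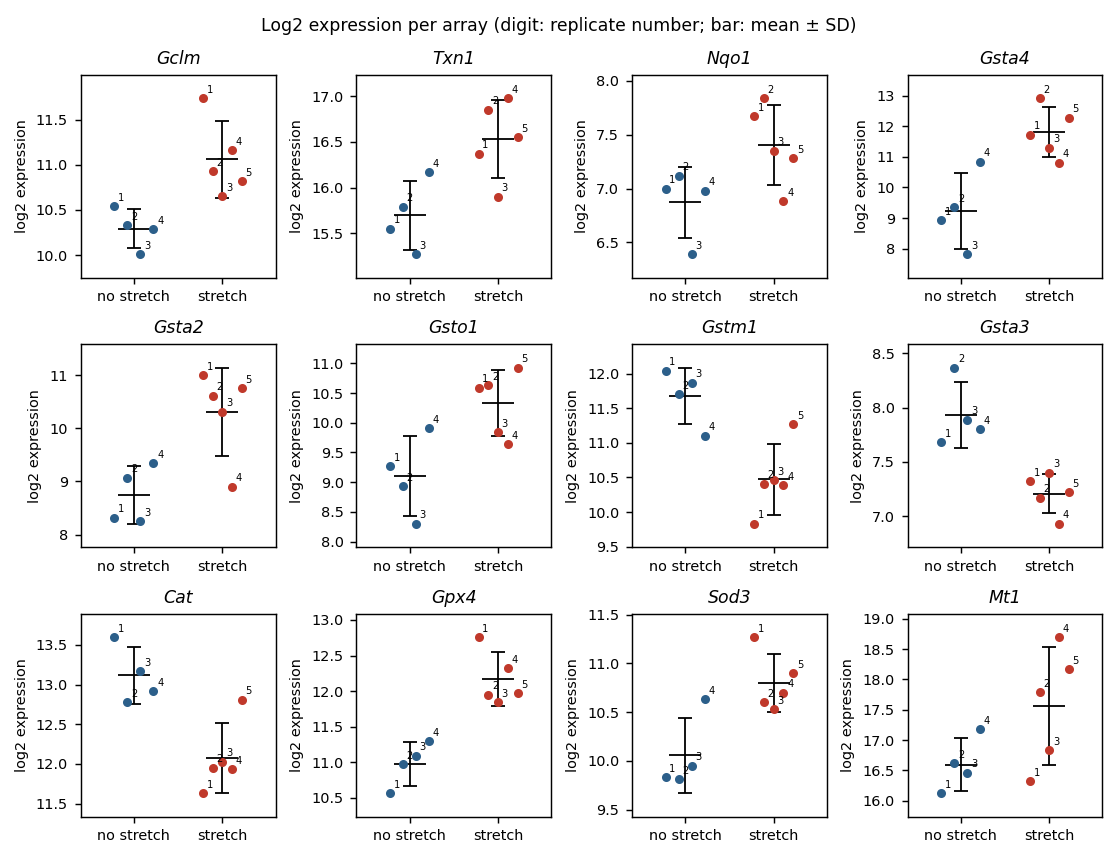
Log2 expression of 12 genes on each array, with no-stretch arrays in blue and stretch arrays in red, replicate numbers beside the points and bars for the mean ± SD (n = 4 and 5). The groups are apart for Gclm, Gsta3 and Gpx4 and overlap for the other 9 genes; each axis covers its own range and does not start at 0.

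Among the glutathione S-transferases, Gsta4, Gsta2 and Gsto1 had the largest positive changes. Gsta4, an alpha-class enzyme specialised for 4-hydroxynonenal and other products of lipid peroxidation, was at 11.72, 12.92, 11.30, 10.81 and 12.27 with stretch and at 8.94, 9.35, 7.82 and 10.84 without. A single pair of arrays overlapped, stretch replicate 4 at 10.81 and no-stretch replicate 4 at 10.84. In the fit the log2 change was 2.56 ± 0.55 (SE), 5.92-fold, with limma adjusted p = 0.081. The change was 3.10 and passed when no-stretch replicate 4 was left out (adjusted p = 0.034 by limma), and was 2.09 when no-stretch replicate 3 was. Gsta4 passed in 1 of the 9 fits that left out 1 array, and the adjusted p of limma reached 0.24 in the others.

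Gsta2, a second alpha-class enzyme and a classical NRF2 target, was at 11.00, 10.61, 10.31, 8.90 and 10.75 with stretch and at 8.32, 9.07, 8.25 and 9.34 without. Only stretch replicate 4 lay inside the no-stretch range. Its log2 change was 1.57 ± 0.40 (SE), 2.97-fold, with limma adjusted p = 0.13, and without stretch replicate 4 it was 1.93 and passed (limma adjusted p = 0.038). Gsta2 passed in no other of the 9 fits that left out 1 array, where the adjusted p of limma reached 0.34. Gsto1, the omega-class enzyme, which acts as a thiol transferase and dehydroascorbate reductase, was at 10.59, 10.63, 9.84, 9.64 and 10.93 with stretch and at 9.27, 8.93, 8.30 and 9.91 without. Stretch replicates 3 and 4 lay below no-stretch replicate 4. This is a log2 change of 1.22 ± 0.34 (SE), 2.34-fold, with limma adjusted p = 0.16.

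The third alpha-class gene had a difference of the opposite sign. Gsta3 was at 7.32, 7.17, 7.40, 6.93 and 7.22 with stretch and at 7.68, 8.37, 7.89 and 7.80 without. Every stretched array lay below every non-stretched one. Stretch minus no stretch gave a log2 change of -0.73 ± 0.18 (SE), 1.65-fold lower, with limma adjusted p = 0.13. Members of this family are similar in sequence, and the sources used here do not state how far the array's probes separate them.

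The 5 mu-class genes of the given list, which does not hold the whole class, all had negative changes and lie in a single cluster of the genome in RefSeq. Gstm1, the most studied of them, was at 9.83, 10.41, 10.46, 10.39 and 11.27 with stretch and at 12.04, 11.70, 11.87 and 11.10 without. Stretch replicate 5 lay above no-stretch replicate 4, and the other arrays did not overlap. The log2 change was -1.21 ± 0.28 (SE), 2.31-fold lower, with limma adjusted p = 0.099. Gstm3 differed by -0.54 (adjusted p = 0.34 by limma), Gstm2 by -0.33 (adjusted p = 0.44) and Gstm5 by -0.30 (adjusted p = 0.65), with overlap in each. Gstm4 differed by -0.08, and its sign turned without stretch replicate 1 (0.05) or no-stretch replicate 4 (0.05). Of the remaining transferases, Gstt1, of the theta class, differed by -0.39 (limma adjusted p = 0.33), Gstp1, of the pi class, by 0.20 (95% confidence interval -0.43 to 0.83) and the microsomal Mgst1 by -0.08 (-0.52 to 0.35).

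Gpx4 had the smallest p-value of the 36 genes. It encodes the selenoenzyme that reduces lipid hydroperoxides within membranes and so guards cells against ferroptosis. It was at 12.76, 11.95, 11.84, 12.32 and 11.97 with stretch and at 10.56, 10.97, 11.09 and 11.29 without. The lowest stretched array, at 11.84, lay above the highest non-stretched one, at 11.29. This is a log2 change of 1.19 ± 0.22 (SE), 2.29-fold, with limma adjusted p = 0.054, just outside the threshold. It passed in 1 of the 9 fits that left out 1 array, without stretch replicate 3 (adjusted p = 0.037 by limma). The adjusted p of limma reached 0.17 in the others, and the change was 1.04 to 1.30 in all 9.

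The other 3 glutathione peroxidases had intervals that included 0. Gpx1, the abundant cytosolic form, differed by 0.34 (95% confidence interval -0.20 to 0.89). Gpx3, the secreted form found in plasma, differed by 0.32 (-0.55 to 1.20), with arrays from 13.70 to 15.54 with stretch and from 13.58 to 14.92 without. It was 0.03 without no-stretch replicate 3 and 0.59 without stretch replicate 1. Gpx2, the epithelial form best known from the gut, differed by -0.11 (-0.61 to 0.38).

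Among peroxiredoxins, which reduce hydrogen peroxide, Prdx4, the form of the endoplasmic reticulum, was at 11.30, 10.40, 10.25, 11.05 and 10.47 with stretch and at 9.46, 9.15, 9.97 and 10.68 without. No-stretch replicate 4 lay above 3 of the stretched arrays. The log2 change was 0.88 ± 0.32 (SE), 1.84-fold, with limma adjusted p = 0.27. Prdx1, a cytosolic form, was at 18.38 in stretch replicate 1 and at 16.77 to 17.22 in the other stretched arrays, against 16.45 to 16.97 without stretch. Its change of 0.46 (limma adjusted p = 0.54) was 0.19 without stretch replicate 1. Prdx2, a second cytosolic form that is abundant in red blood cells, differed by -0.24 (-0.73 to 0.24).

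Of the enzymes that remove superoxide, Sod3, the extracellular form, was at 11.27, 10.60, 10.53, 10.70 and 10.90 with stretch and at 9.83, 9.81, 9.95 and 10.63 without. No-stretch replicate 4 lay above the 2 lowest stretched arrays, and the other non-stretched arrays lay below all 5. In the fit the log2 change was 0.75 ± 0.22 (SE), 1.68-fold, with limma adjusted p = 0.18. Sod2, the mitochondrial form, which is induced by inflammatory cytokines, was at 12.80, 13.72, 13.22, 14.43 and 13.46 with stretch and at 12.71, 12.65, 12.55 and 13.14 without. Stretch replicate 1 lay inside the no-stretch range. The log2 change of Sod2 was 0.76 ± 0.29 (SE), 1.70-fold, with limma adjusted p = 0.29. Sod1, the cytosolic form, differed by 0.25 (95% confidence interval -0.21 to 0.70).

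Catalase, which breaks down hydrogen peroxide in peroxisomes, was lower with stretch. Cat was at 11.63, 11.95, 12.03, 11.93 and 12.81 with stretch and at 13.60, 12.78, 13.17 and 12.92 without. Stretch replicate 5 at 12.81 and no-stretch replicate 2 at 12.78 overlapped, and no other arrays did. The log2 change was -1.05 ± 0.25 (SE), 2.07-fold lower, with limma adjusted p = 0.11. Fibroblast, adipocyte and sebaceous lists, with the means given above, also had lower group means, and their part in this difference was not tested.

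The metallothioneins, small cysteine-rich proteins that bind zinc and copper and scavenge radicals, varied widely among stretched arrays. Mt1 was at 16.32, 17.79, 16.83, 18.70 and 18.17 with stretch and at 16.12, 16.62, 16.46 and 17.18 without. Mt2 was at 15.43, 17.60, 16.09, 18.18 and 17.36 with stretch and at 15.62, 16.70, 15.43 and 16.30 without. Stretch replicates 2, 4 and 5 lay above all non-stretched arrays for both genes, and stretch replicates 1 and 3 lay within the no-stretch range for both. Stretch minus no stretch gave a log2 change of 0.97 ± 0.43 (SE), 1.96-fold, for Mt1 (limma adjusted p = 0.37) and 0.92 ± 0.51 (SE), 1.89-fold, for Mt2 (limma adjusted p = 0.48). Without stretch replicate 4 the changes were 0.69 and 0.60, and without stretch replicate 1 they were 1.28 and 1.29.

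The stretched arrays thus differed in which genes were high, as the map of deviations shows. Stretch replicate 4 was the highest of its group for 8 genes, namely Gsr, Txn1, Txnrd1, Gpx3, Sod1, Sod2, Mt1 and Mt2, and the lowest for 7, namely Nqo1, Gsta2, Gsta3, Gsta4, Gstm2, Gsto1 and Gstt1. Stretch replicate 1 was the highest for Gclm, Gpx4, Prdx1, Prdx4, Sod3 and 3 transferases, and the lowest for 13 genes, among them Nfe2l2, Mt1, Mt2, Cat and Gstm1. On the array of stretch replicate 4 the keratinocyte list averaged 14.93, against 15.67 to 15.93 on the other stretched arrays, and the monocyte and macrophage list 13.44, against 12.12 to 13.02. The neutrophil list was also at its highest there, 9.77 against 8.33 to 9.62, and the sebaceous list at its lowest, 8.41 against 8.89 to 9.85. The part of these lists in the pattern was not tested.

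**Figure D4:**
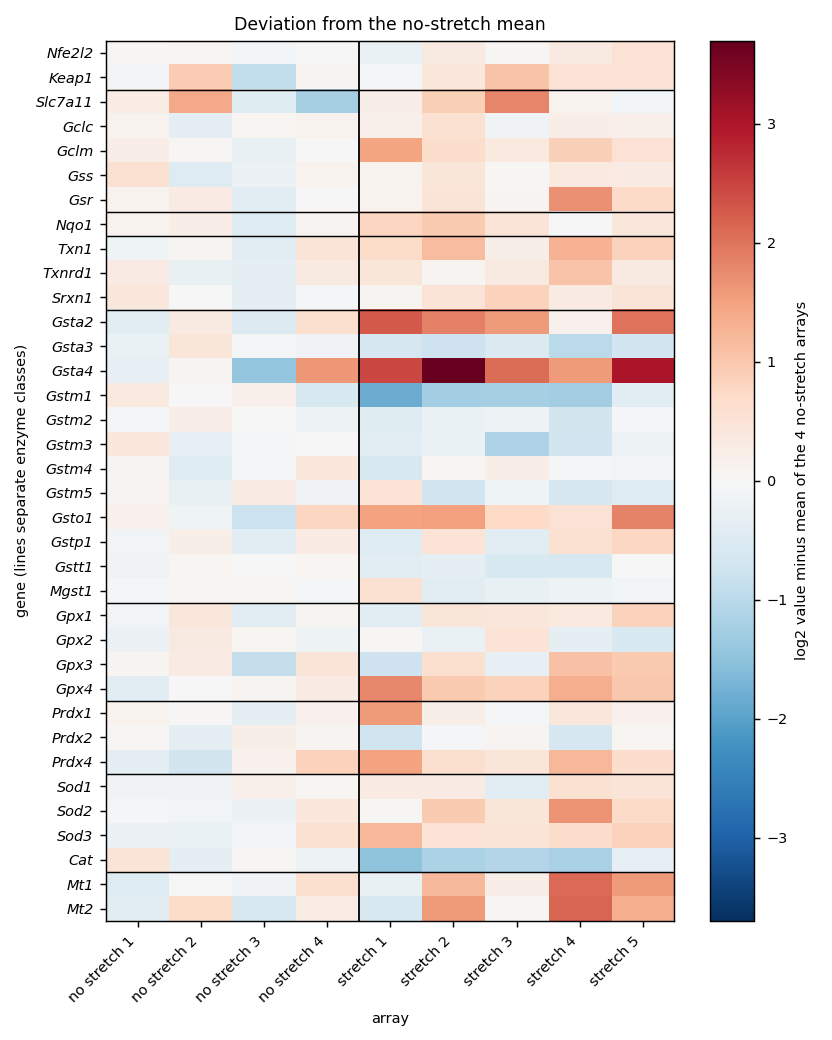
Log2 value of each of the 36 genes on each array minus the mean of the 4 no-stretch arrays, in red where higher and in blue where lower, with horizontal lines between enzyme classes. Deviations run from -1.85 (Gstm1, stretch replicate 1) to 3.68 (Gsta4, stretch replicate 2), and the rows of Gsta2, Gsta4, Gsto1 and Gpx4 are red in all 5 stretched arrays, while those of Gsta3, Gstm1 and Cat are blue in all 5.

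The differences were also set beside the promoter letters. The 10 measured genes with the antioxidant response element core in their window had a median log2 change of 0.34, with 7 positive and a range of -0.73 to 0.92. The 22 measured genes whose windows lacked the core had a median of 0.33, with 14 positive and a range of -1.21 to 1.57. Gsta4, Sod3, Gsr and Gclc had no window and are in neither group, with log2 changes of 2.56, 0.75, 0.62 and 0.21. Of the genes shown above with a core, Gclm was at 0.77, Prdx1 at 0.46, Mgst1 at -0.08 and Gsta3 at -0.73 in log2 change. No match says only that these letters are not in this window.

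Other genes of the pathway, from lists beyond the 36, were read from the same fit. Of 29 further NRF2 targets and regulators measured, 1 rose, 1 fell and the others did not pass, with a median log2 change of 0.25. The adjusted p of 0.05 of limma was passed by 0.246% of all genes. An unadjusted p under 0.05 was reached by 11 of the 29, 7 higher and 4 lower (37.9%, against 13.0% of all genes). The groups were apart for 5 of them (17.2%, against 4.54% of all genes). Hmox1, heme oxygenase, a strongly inducible NRF2 target, rose 4.27-fold (log2 change 2.10, limma adjusted p = 0.045) and was at 13.37 to 14.82 with stretch and at 11.61 to 13.28 without. Ephx1, microsomal epoxide hydrolase, fell 2.13-fold (log2 change -1.09, limma adjusted p = 0.038), from 8.27 ± 0.35 (SD, n = 4) to 7.17 ± 0.11 (SD, n = 5). Both calls depended on which arrays were kept, while the size of the changes moved little. In the 9 fits that left out 1 array, Hmox1 passed in 2 (without stretch replicate 3 or no-stretch replicate 4). Ephx1 passed in 3 (the same pair of fits, and without stretch replicate 1). The log2 change was 1.85 to 2.41 for Hmox1 and -1.21 to -0.97 for Ephx1 in these fits. The adjusted p of limma ran from 0.0074 to 0.15 for Hmox1 and from 0.037 to 0.13 for Ephx1 in these fits. Without both arrays of lowest weight neither passed (0.15 and 0.12 in limma), and Hmox1 missed the threshold with all features tested (adjusted p = 0.054 by limma). Ephx1 passed there, and both passed in every other alternative that left out no array. Maff, a small MAF partner of NRF2, had a log2 change of 1.14 (limma adjusted p = 0.082), and Esd, an esterase that acts on S-formylglutathione, of 1.11 (adjusted p = 0.18).

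Of 31 other glutathione and thioredoxin genes measured, 0 passed the adjusted p of 0.05 of limma, 7 had an unadjusted p under 0.05 (5 higher, 2 lower; 22.6%, against 13.0% of all genes) and the median log2 change was 0.16. Txnip, the inhibitor that binds thioredoxin, differed by -1.17 (limma adjusted p = 0.054), opposite in sign to Txn1. Gstt2, a near neighbour of Gstt1 in the genome, differed by 1.05 (adjusted p = 0.055 by limma), opposite in sign to Gstt1. Prdx3, the mitochondrial peroxiredoxin, differed by 0.84 (adjusted p = 0.076), and Msrb1, a methionine sulfoxide reductase, by 1.09 (adjusted p = 0.10).

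Among the 13 measured NADPH oxidase and other oxidant-producing genes, 0 passed in limma, 3 had an unadjusted p under 0.05 (23.1%, against 13.0% of all genes), all higher, and the median log2 change was -0.02. Those 3 were Nos2, the inducible nitric oxide synthase, at 1.78 (limma adjusted p = 0.16), and Cyba and Ncf1, subunits of the phagocyte oxidase, at 0.97 and 0.88 (adjusted p = 0.31 for each). Ncf4, a further subunit, differed by 0.74 (adjusted p = 0.44). Of 11 other genes of metal handling, 0 passed in limma and 2 had an unadjusted p under 0.05 (18.2%, near the 13.0% of all genes), both lower. These were the zinc importers Slc39a8 and Slc39a10, at -1.52 and -0.91 (limma adjusted p = 0.13 and 0.15). Atp7a, a copper pump, differed by 0.38 and Slc30a1, a zinc exporter, by -0.38. In mean level, 3 of the 13 oxidant-producing genes and 2 of the 11 metal handling genes lay below the 25th percentile of all genes. So did 1 of the 29 further NRF2 targets and regulators and 2 of the 31 other glutathione and thioredoxin genes.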

How the data were processed

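The authors deposited log2 expression values for 22206 features on 9 arrays. The submitters' processing notes name RMA and Transcriptome Analysis Console for them, without versions. RMA shrinks differences between dim values, which lowers their fold changes. No source used here names the genome build or any filter, and detection calls were not used.

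Features were named from the platform annotation (19572 with 1 symbol, 0 with several, 2634 without), and the feature of highest mean stood for each of 19505 genes. Stretch minus no stretch was tested two-sided, without covariates, by limma 3.58.1 (lmFit, eBayes; R 4.3.3), and p-values of all genes were adjusted together (Benjamini-Hochberg). Folds are log2 changes put back on the linear scale. Alternatives covered normalization, dim genes, features, the variance model, array weights, a replicate block, thresholds and each array left out. The naming rule took every listed gene and up to 4 genes of smallest p from each pathway and marker list. Of the marker lists, only some of these genes are named, and none from the monocyte and macrophage or skeletal muscle lists. The genes and lists were chosen with earlier results of these data known.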

Additional observations from a re-analysis of the deposited data

Results flagged for a closer look

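Single arrays stood apart from the rest of their group for 4 of the 72 combinations of gene and group examined, by the gap to the nearest array as a share of the group's range (Dixon's test at 95%). Chance alone gives about 1 in 20 such combinations. Prdx1 was at 18.38 in stretch replicate 1, where the next highest stretched array was at 17.22. Sod1 was at 10.88 in stretch replicate 3, with the next lowest at 11.59. Gclc was at 8.39 in no-stretch replicate 2, with the next lowest at 8.83. Sod3 was at 10.63 in no-stretch replicate 4, with the next highest at 9.95.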

How the results depend on the processing

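None of the 36 genes passed after quantile normalization, median centring, averaging of features, testing of all features or a trended robust variance. Each of the 36 had a single feature, so averaging of features could not alter their values. Gpx4 passed among genes above the median level and with array weights (1 gene in each), and 3 genes passed at an adjusted p of 0.1. With the replicate number as a block, 1 gene passed, Gstm1 (limma adjusted p = 0.049), and 221 of all genes. Stretch replicate 5 has no partner number, so it adds nothing to that comparison: all changes equal those without it, where 0 of the 36 and 13 of all genes passed. Same-numbered arrays deviated together only for number 4 (r = 0.34, against -0.06 to 0.06 for the others, across genes), and not every array correlated best with its own number, so the numbers were not taken to pair the arrays. Leaving out single arrays, 0 to 1 passed (Gpx4, Gsta2 and Gsta4 in 1 fit each), and between 3 and 11 genes had groups apart. Apart groups become more common with fewer arrays: 11 genes (30.6%) were apart without no-stretch replicate 4, where 8.73% of all genes were, and in the other 8 fits 8.33% to 16.7% of the 36 were, against 5.95% to 7.83% of all genes. The change of 17 of the 36 moved by over 1.5 times in at least 1 such fit, and that of 19 did not, among them Gclm, Txn1, Gsta2, Gsta3, Gsta4, Gstm1, Gsto1, Gpx4 and Cat. Over all genes, 48 passed, against 75 after quantile normalization, 103 among genes above the median level, 157 with array weights, 211 at an adjusted p of 0.1, and 2 to 195 without single arrays (2 without stretch replicate 2 or no-stretch replicate 3, 195 without stretch replicate 3). Without both arrays of lowest weight, 15 of all genes passed and 5 of the 36 had groups apart (13.9%, against 9.64% of all genes), and Gstm4 turned to 0.037. Gstm4 ranged from -0.243 to 0.05 and Gpx2 from -0.27 to 0.001 without single arrays, the only listed genes whose sign turned in any alternative run. The cause of these differences was not tested. The median change of the 36 genes lay between 0.27 and 0.46 in all of them. Averaging of features, testing of all features, the trended robust variance and the looser threshold cannot change this median. Signal over background was not assessed.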
